A study of Mus musculus with 8 samples.

Results

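The genes described here are the extracellular matrix and basement membrane genes measured in mouse testis. They were chosen by name from the probe sets that carried a single gene symbol: every collagen chain, every laminin chain, every matrix metalloproteinase (Mmp) and every tissue inhibitor of metalloproteinases (Timp), together with Fn1, Nid1, Sparc, Dcn, Bgn, Lum, Fbln1, Fbln2, Eln and Hspg2. This gave 66 genes of the 8251 genes with 1 symbol on the array. They were covered by 95 probe sets, and each of the 22 genes with several probe sets was represented by its brightest one, by the mean over all 8 arrays. Of the 66 genes, 41 were bright enough to be tested, among 5530 tested genes in all.

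RNA from testis had been hybridised to 8 Affymetrix MG_U74Av2 arrays, 2 for each of 4 genotypes. These were wild type, Terc knockout of the third generation without Terc (G3-Terc(-/-)), Ku86 knockout (Ku86(-/-)), and the double knockout, which lacked Ku86 and was also of the third generation without Terc. Terc is the RNA template of telomerase, and Ku86, the product of Xrcc5, is a DNA end-binding protein that also acts at telomeres. Strain and age are not given in the sources used here, and no promoter-driven transgene or Cre is named. The labels call the source testis, whereas the scanner records call it germ cells. The records describe double knockout replicate 1 as a pool of 3 mice and name no pool for the other arrays. They describe wild type replicate 1 as a repeated hybridisation. Double knockout replicate 1 and Ku86 knockout replicate 1 were scanned on day 1, wild type replicate 1 alone on day 3, and the other 5 arrays, which cover all 4 genotypes, on day 2. The lot of the chip changed with the scan day.

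In the testis, a basement membrane surrounds each seminiferous tubule and separates the germ cells and Sertoli cells from the peritubular myoid cells and the interstitium. Its framework is a network of type IV collagen joined to a network of laminin by nidogen and the heparan sulfate proteoglycan perlecan (Hspg2). Fibrillar collagens, elastin and small proteoglycans such as decorin and biglycan lie around it, Mmp enzymes cut these proteins, and Timp proteins inhibit the enzymes.

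Signals are in arbitrary units. The array medians spanned 49.6 (wild type replicate 1) to 73.0 (Terc knockout replicate 2), and values under 11.8, the floor, were set to it, which touched 15.6% to 26.0% of an array's probe sets. Summed over 13 germ cell markers, the signal was 63530 to 79170 on the 8 arrays, with Prm1 and Tnp2 the brightest. The markers were not all bright, and 11 of the 13 were tested. Prm2 read 45.6 to 155.4, and the meiotic gene Sycp3 lay at or under the floor on all 8 arrays. Xrcc5 went against its label: its brighter probe set read 259 to 459 on the arrays labelled Ku86 knockout and 11.1 to 75.6 on the arrays labelled with Ku86, while a second probe set read 3.4 or less on all 8. The position of these probe sets relative to the deleted part of the gene is not known here, so every direction below that involves Ku86 follows the labels and refers to the arrays labelled so.

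With the deposited scaling, genes of the matrix mostly read above wild type on the arrays labelled double knockout, as they also did in both single knockouts. The largest double knockout differences were those of Sparc, a secreted glycoprotein, the proteoglycans biglycan and decorin, Timp2, Timp3 and the laminin chains Lama1 and Lamb1. Of these, Timp2, Timp3 and Lama1 had wild type levels under the brightness filter. In the double knockout 27 of 41 tested members lay above wild type with quantile normalization and 21 with median centring. No single member passed the test in this or in any other of the 8 comparisons (limma, Benjamini-Hochberg adjusted p under 0.05 over 7282 probe sets). The lowest adjusted p among the members was 0.296 for Bgn and Sparc in the double knockout against wild type, 0.672 for Timp2 in the Terc knockout and 0.802 for Eln in the Ku86 knockout. Calls were rare on the array as a whole: 2 probe sets passed in the double knockout (0.0275%), 2 in the Terc knockout (0.0275%) and 3 in the Ku86 knockout (0.0412%), against 626, 514 and 430 probe sets at an unadjusted p under 0.05. With 2 arrays a genotype the p-values measure only the spread between these arrays. All values below are therefore differences in level with their errors, and none is a call.

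In the double knockout, 37 of the 41 tested members read above wild type, with a median log2 difference of 0.43, where 58.8% of all 5530 genes read above wild type with a median of 0.08. In the Terc knockout 37 of 41 read above wild type with a median of 0.42, beside 59.8% and 0.09 for all genes. In the Ku86 knockout 35 of 41 did, with a median of 0.29, beside 58.6% and 0.08. The 3 comparisons share the wild type arrays and are not independent of one another. Among all 66 members, the dim ones included, 53 read above wild type in the double knockout, 49 in the Terc knockout and 48 in the Ku86 knockout. Their median in the double knockout was smaller, 0.18, beside 0.06 for all genes without the filter. The medians were 0.36 in the Terc knockout (all genes 0.09) and 0.27 in the Ku86 knockout (all genes 0.06). In each single knockout 6 members were exactly at 0. Of the 41 tested members, 8 had a wild type level under the filter and passed it through other genotypes (Col6a3, Col11a1, Col14a1, Lama1, Mmp11, Mmp17, Timp2 and Timp3), so these counts and medians describe the set and support nothing further.

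The counts above 0 moved with the scaling of the arrays. With quantile normalization 27, 30 and 28 of 41 members read above wild type in the double, Terc and Ku86 knockout, and with each array centred on its median 21, 26 and 27 did. Median centring shifted the median of all genes to -0.19, -0.24 and -0.15. Measured against the median of all genes, 32 members lay above it in the double knockout with the deposited scaling, 27 with quantile normalization and 32 with median centring. The same counts were 35, 30 and 35 in the Terc knockout and 30, 28 and 30 in the Ku86 knockout.

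**Figure D1:**
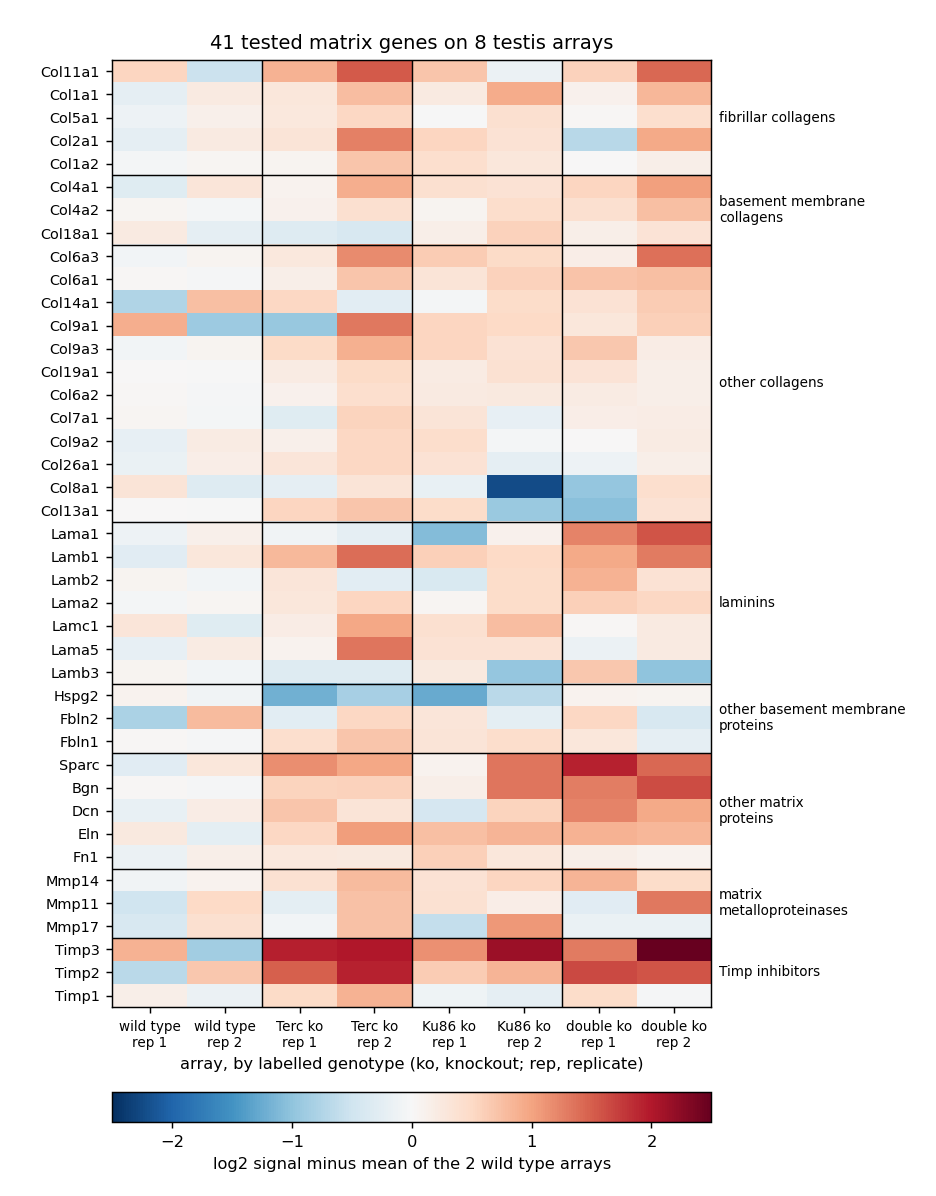
Log2 signal of each of the 41 tested members (rows, grouped by role) on each of the 8 arrays (columns), relative to the mean of the 2 wild type arrays; red is above and blue is below wild type. Sparc, Bgn, Dcn, Eln, Timp2, Timp3, Lama1 and Lamb1 are red on both double knockout arrays, and Hspg2 is clearly blue on the 4 single knockout arrays.

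By single arrays, the median member stood 0.34 and 0.42 above the wild type mean on double knockout replicates 1 and 2, 0.27 and 0.69 on Terc knockout replicates 1 and 2, and 0.31 and 0.39 on Ku86 knockout replicates 1 and 2. The medians of all genes on these arrays ran from 0.05 to 0.11. Terc knockout replicate 2 gave the highest reading of 19 of the 41 members, where it gave the highest reading of 21.8% of all genes. Wild type replicate 1 gave the lowest reading of 17 members, where it gave the lowest of 26.1% of all genes. Without Terc knockout replicate 2 the median difference of the members in the Terc knockout was 0.27, and without replicate 1 it was 0.69.

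Members whose 2 knockout arrays both lay above both wild type arrays numbered 20 of 41 in the double knockout, where 23.7% of all genes did so, and none lay below on both, where 13.1% of all genes did. In the Terc knockout 25 lay above (all genes 24.5%) and 3 below (12.9%), and in the Ku86 knockout 19 lay above (23.7%) and 1 below (14.2%). At an unadjusted p under 0.05, 11 members were higher in the double knockout (6.56% of all genes) and 0 lower (2.37%), 8 were higher in the Terc knockout (4.61%) and 1 lower (2.19%), and 2 were higher in the Ku86 knockout (3.54%) and 1 lower (2.19%). The count of 11 was 6 without wild type replicate 1, 7 without wild type replicate 2 and 6 without double knockout replicate 2. The count of 8 was 5 without wild type replicate 1, 3 without wild type replicate 2, 2 without Terc knockout replicate 2 and 12 without replicate 1. The count of 2 was 1 without wild type replicate 2, 0 without Ku86 knockout replicate 2 and 5 without Ku86 knockout replicate 1. The scaling moved them too: with median centring they were 7, 2 and 1, and with quantile normalization 9, 4 and 1. With the deposited scaling and all 8 arrays, Timp3 is in every count of higher members. Timp2 is in those of the Terc and double knockout, and Lama1 in those of the double knockout. The wild type levels of these genes were under the filter, which they passed through other genotypes. The counts therefore describe the set and support nothing further.

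**Figure D2:**
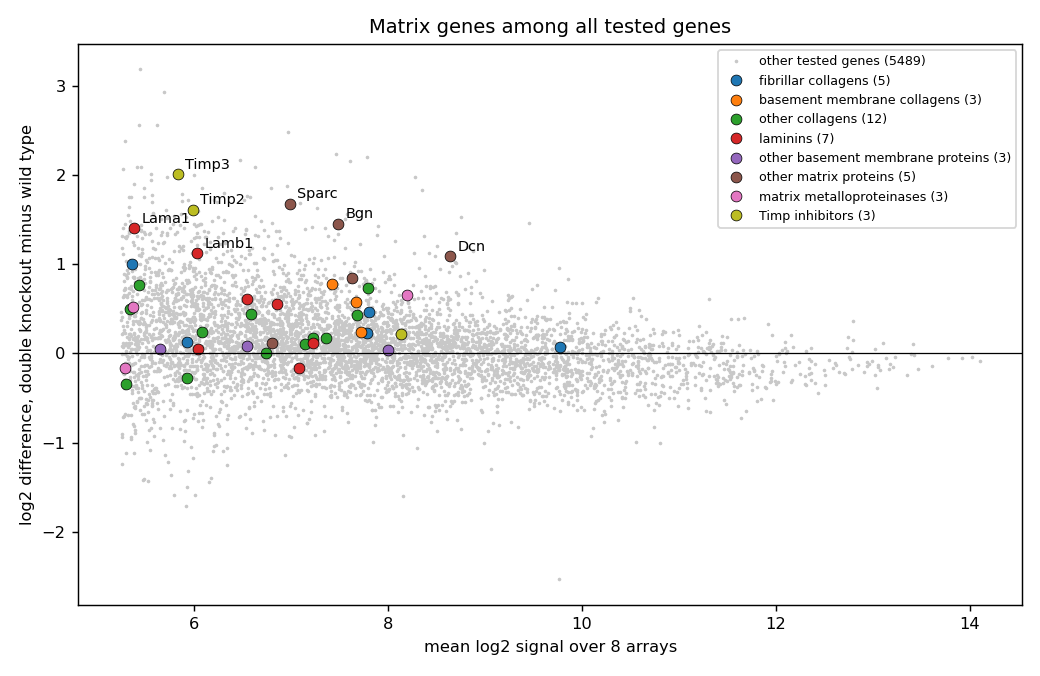
Log2 difference between double knockout and wild type (vertical axis) against the mean log2 signal over 8 arrays (horizontal axis) for all 5530 tested genes, with the 41 members coloured by role. The 7 labelled members, from Dcn to Timp3, lie 1.09 to 2.01 above 0 at levels where many other genes also scatter.

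Of the 5 other matrix proteins tested, 4 lay above wild type on both double knockout arrays, and the median difference of the 5 was 1.09, 1.03 with quantile normalization and 0.83 with median centring. Sparc, a collagen-binding glycoprotein of remodelling tissue, read 57.8 and 84.8 on the wild type arrays, 156 and 137 on the Terc knockout arrays, 74.0 and 178 on the Ku86 knockout arrays and 265 and 190.3 on the double knockout arrays. Both double knockout arrays lay above all other arrays, and the Ku86 knockout arrays overlapped wild type. The log2 difference of the double knockout from wild type was 1.68 ± 0.41 (SE), or 3.21-fold, with an adjusted p of 0.296. Within scan day 2, with 1 array of each, it was 1.17.

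Biglycan (Bgn), a leucine-rich proteoglycan, read 114 and 109 in wild type, 163 and 167 in the Terc knockout, 124 and 279 in the Ku86 knockout and 269.8 and 346 in the double knockout. All 6 knockout arrays were above both wild type arrays, and Ku86 knockout replicate 1 was the nearest to them. The double knockout differed from wild type by 1.46 ± 0.35 (adjusted p = 0.296), and by 1.67 within scan day 2. A second, separately tested probe set of Bgn gave 0.96 in the Terc knockout, 0.91 in the Ku86 knockout and 1.25 in the double knockout.

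Decorin (Dcn), the related proteoglycan that binds collagen fibrils, was the brightest of these genes, at 264 and 341 in wild type, 484 and 374 in the Terc knockout, 224 and 440.5 in the Ku86 knockout and 708 and 578 in the double knockout. The double knockout arrays were above all others, and Ku86 knockout replicate 1 was the lowest of the 8. The double knockout differed from wild type by 1.09 ± 0.31 (adjusted p = 0.375) and from the Ku86 knockout by 1.02 ± 0.31 (adjusted p = 0.9995). The latter was 1.66 between the 2 arrays of scan day 1 and 0.39 between the 2 of scan day 2.

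Elastin (Eln), the core protein of elastic fibres, read 155 and 109 in wild type, 186 and 267 in the Terc knockout, 220.3 and 236 in the Ku86 knockout and 237 and 232 in the double knockout. All 6 knockout arrays lay above both wild type arrays, by 0.78 ± 0.28 (adjusted p = 0.672), 0.81 ± 0.28 (adjusted p = 0.802) and 0.85 ± 0.28 (adjusted p = 0.445). Fibronectin (Fn1), a cell-binding glycoprotein, read 103 to 107 in the double knockout and 87.9 to 108 in wild type, so these groups overlapped. Lumican (Lum) was too dim to be tested, at 22.1 to 55.1 over the 8 arrays.

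**Figure D3:**
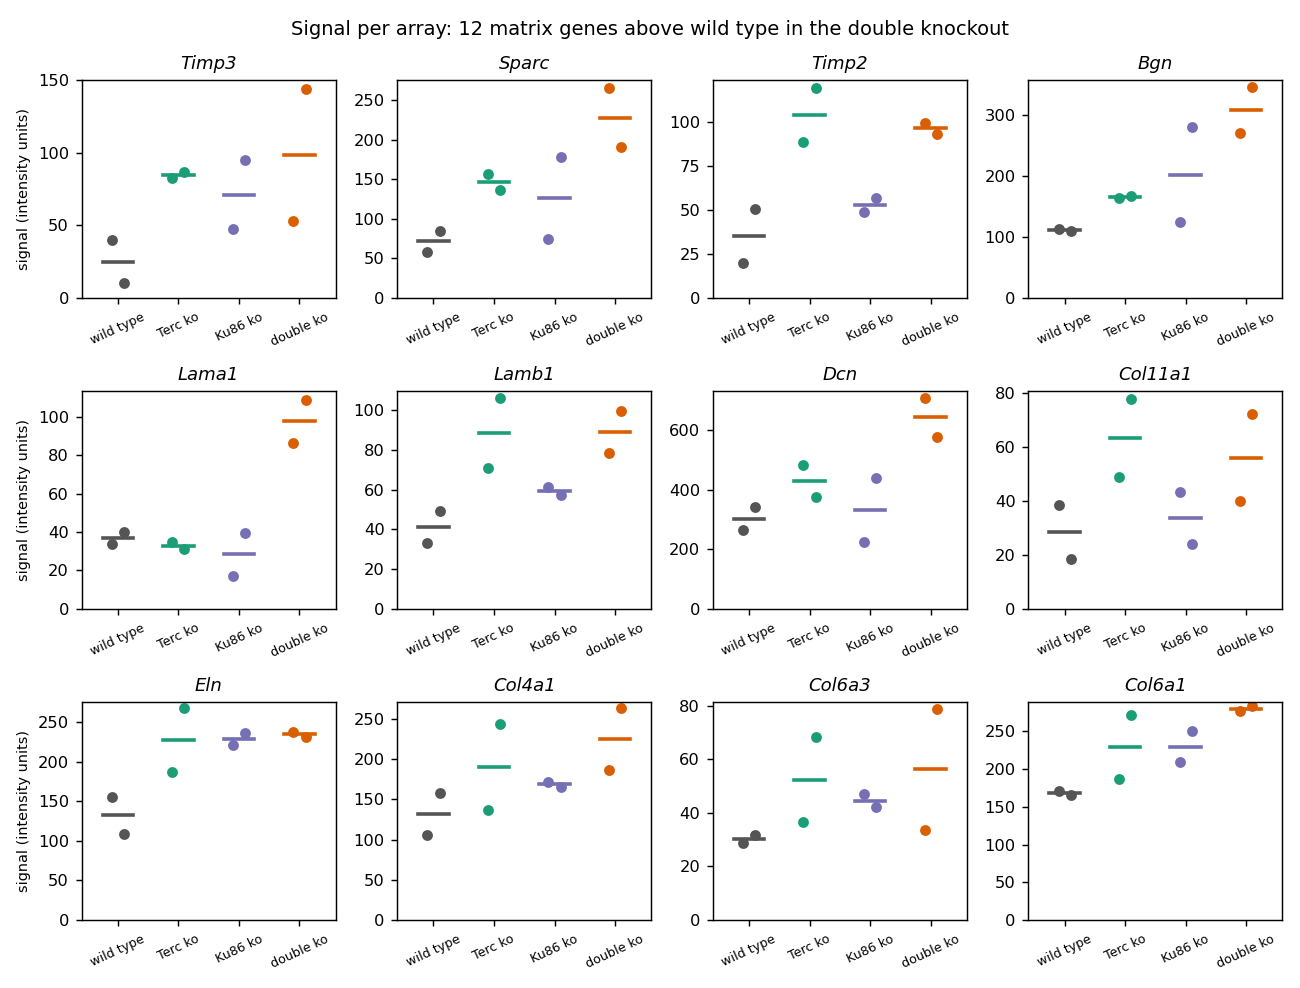
Signal of 12 members on every array (points) with the genotype mean (bar), 2 arrays per genotype, on linear axes from 0. These are the members with the largest difference among those whose 2 double knockout arrays do not overlap the 2 wild type arrays; Ku86 knockout points of Sparc, Bgn and Dcn are far apart.

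All 3 Timp genes were tested, and their median difference from wild type was 1.70 in the Terc knockout, 0.75 in the Ku86 knockout and 1.61 in the double knockout. Timp1 read 275 and 225 in wild type, 344 and 454 in the Terc knockout, 229.6 and 214 in the Ku86 knockout and 342 and 244 in the double knockout. The Terc knockout arrays were the 2 highest, with a difference from wild type of 0.67 ± 0.26 (adjusted p = 0.672), and the double knockout overlapped wild type, at 0.22 with the deposited scaling and -0.048 with median centring.

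Timp2, which both inhibits Mmp enzymes and takes part in activating Mmp2, read 19.7 and 50.2 in wild type, 88.4 and 119 in the Terc knockout, 48.9 and 56.9 in the Ku86 knockout and 99.2 and 93.1 in the double knockout. All 4 arrays without Terc were above all 4 arrays with Terc. The difference from wild type was 1.70 ± 0.48 (adjusted p = 0.672) in the Terc knockout, 0.75 ± 0.48 (adjusted p = 0.802) in the Ku86 knockout and 1.61 ± 0.48 (adjusted p = 0.379) in the double knockout. Within scan day 2 these values were 1.03, 0.18 and 0.89. The 2 further probe sets of Timp2 were dim, at 10.5 or less on every array.

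Timp3, the inhibitor that is bound to the matrix itself, read 39.6 and 9.9 in wild type, 82.6 and 86.6 in the Terc knockout, 47.6 and 94.8 in the Ku86 knockout and 52.9 and 144 in the double knockout. All 6 knockout arrays were above both wild type arrays, but wild type replicate 2 was under the floor and was set to 11.8, so the differences depend on the floor. They were 1.97 ± 0.65 (adjusted p = 0.672), 1.64 ± 0.65 (adjusted p = 0.802) and 2.01 ± 0.65 (adjusted p = 0.427) in the Terc, Ku86 and double knockout. Without wild type replicate 2 the double knockout differed by 1.14, and without replicate 1 by 2.89.

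Averaged over the Ku86 genotype, arrays without Terc were compared with arrays with Terc, 4 against 4. Limma called 0 members, beside 1 probe set of the array (0.0137%). At an unadjusted p under 0.05, 10 members were higher without Terc (4.32% of all genes) and 0 lower (1.12%). The count of 10 was 3 without Terc knockout replicate 2, 5 without double knockout replicate 2, 6 with quantile normalization and 4 with median centring. Among the 10 were Timp2, Timp3, Lama1 and Col11a1, whose wild type levels were under the filter. Timp2 differed by 1.28 ± 0.34 (limma adjusted p = 0.894), the lowest of the members, and the laminin chain Lamb1 by 0.84. Timp2 and Lamb1 were the only 2 members whose 4 arrays without Terc all lay above the 4 with Terc, where 1.65% of all genes did so, and 0 members lay below (0.723% of all genes). The dim second probe set of Lamb1 did not rise in the Terc knockout, with a mean of 22.05 beside 23.3 in wild type. Sparc differed by 1.01, Dcn by 0.76 and Timp1 by 0.53, with overlap between the sides.

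For the Ku86 genotype averaged in the same way, no member separated the 4 arrays labelled Ku86 knockout from the other 4, where 1.72% of all genes lay above and 1.54% below. At an unadjusted p under 0.05, 4 members were higher on the arrays labelled Ku86 knockout (3.53% of all genes) and 0 lower (1.56%), and limma called 0 probe sets, with 375 at that p. The count of 4 was 1 without Ku86 knockout replicate 2, and 2 without wild type replicate 2, Terc knockout replicate 1 or double knockout replicate 2. It was 2 with quantile normalization and 1 with median centring. Bgn had the lowest p, with a difference of 0.81 ± 0.25 (limma adjusted p = 0.8995), and Col18a1 differed by 0.48.

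Because Bgn, Sparc, Timp2, Timp3 and Lamb1 read above wild type together in the double knockout, the 250 bases before their annotated starts are shown. They were chosen after their values were seen, as the members more than 1 above wild type at an unadjusted p under 0.05 with a promoter in the table. Lama1 and Dcn are named only. The sequences are RefSeq's, on build GRCm38.p6, written 5′ to 3′ on the gene's strand, with capitals marking a GC box (GGGCGG) or a CCAAT box (CCAAT) on either strand. Bgn lies at chrX:73483351-73483600 on the plus strand, Sparc at chr11:55420081-55420330 on the minus strand, Timp2 at chr11:118355412-118355661 on the minus strand, Timp3 at chr10:86300162-86300411 on the plus strand and Lamb1 at chr12:31265043-31265292 on the plus strand.
Bgn: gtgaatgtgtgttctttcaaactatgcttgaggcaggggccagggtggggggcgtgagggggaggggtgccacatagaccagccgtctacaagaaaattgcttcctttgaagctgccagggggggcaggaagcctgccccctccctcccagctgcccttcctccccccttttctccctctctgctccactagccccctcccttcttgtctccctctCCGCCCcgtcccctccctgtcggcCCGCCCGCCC
Sparc: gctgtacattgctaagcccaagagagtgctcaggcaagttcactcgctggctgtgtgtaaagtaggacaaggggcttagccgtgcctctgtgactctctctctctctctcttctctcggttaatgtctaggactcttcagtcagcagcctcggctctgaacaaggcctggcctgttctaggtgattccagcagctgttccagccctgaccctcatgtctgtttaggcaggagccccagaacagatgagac
Timp2: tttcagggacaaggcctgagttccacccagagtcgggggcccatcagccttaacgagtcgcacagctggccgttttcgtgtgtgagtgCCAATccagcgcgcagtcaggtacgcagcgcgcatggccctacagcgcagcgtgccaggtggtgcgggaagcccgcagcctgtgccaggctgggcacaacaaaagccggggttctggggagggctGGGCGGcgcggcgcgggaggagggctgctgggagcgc
Timp3: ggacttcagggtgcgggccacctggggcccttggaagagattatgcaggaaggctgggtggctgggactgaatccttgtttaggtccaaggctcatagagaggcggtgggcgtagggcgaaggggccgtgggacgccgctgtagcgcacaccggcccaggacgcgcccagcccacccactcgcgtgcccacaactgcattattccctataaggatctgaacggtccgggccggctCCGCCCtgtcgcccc
Lamb1: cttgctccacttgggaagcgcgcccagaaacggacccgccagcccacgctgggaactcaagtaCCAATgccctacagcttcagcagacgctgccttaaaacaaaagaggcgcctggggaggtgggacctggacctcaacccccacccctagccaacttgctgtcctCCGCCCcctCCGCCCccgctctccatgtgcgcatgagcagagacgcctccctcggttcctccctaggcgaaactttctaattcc
Bgn held 3 GC boxes, of which the 2 nearest the start overlap, Lamb1 held 2 GC boxes and 1 CCAAT box, Timp2 held 1 of each, Timp3 held 1 GC box and Sparc held neither. None of the 5 held the letters TATAAA. Over the 52 promoter windows of the 45 members in the table, 48.1% held a GC box, 30.8% a CCAAT box and 17.3% TATAAA. Over all 32851 windows of the same 250 bases these shares were 32.7%, 33.8% and 12.4%. The letters are a description of these windows and do not show that a factor binds there.

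Of the 9 laminin chains, 7 were tested. Laminins are heterotrimers of an alpha, a beta and a gamma chain. In the double knockout 6 of the 7 read above wild type, with a median difference of 0.56, and 4 of 7 did so with quantile normalization or median centring. Lamb1, the beta chain of laminin-111, read 33.3 and 49.3 in wild type, 70.9 and 106 in the Terc knockout, 61.1 and 57.2 in the Ku86 knockout and 78.5 and 99.6 in the double knockout. All 6 knockout arrays lay above wild type, and the double knockout differed by 1.13 ± 0.41 (adjusted p = 0.497). A second probe set of Lamb1, too dim to be tested, gave another picture. Its means were 23.3 in wild type, 22.05 in the Terc knockout, 10.9 in the Ku86 knockout and 33.45 in the double knockout.

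Lama1, the alpha chain of laminin-111, read 33.8 and 39.8 in wild type, 34.6 and 31.3 in the Terc knockout, 17.3 and 39.5 in the Ku86 knockout and 86.4 and 109 in the double knockout. Only the double knockout arrays stood apart, and the other 6 arrays overlapped. The mean of every other genotype was under the filter, so Lama1 was tested only through the double knockout. The double knockout differed from wild type by 1.40 ± 0.56 (adjusted p = 0.497), from the Terc knockout by 1.56 ± 0.56 (adjusted p = 0.990) and from the Ku86 knockout by 1.89 ± 0.56 (adjusted p = 0.9995). The last of these was 2.32 within scan day 1 and 1.46 within scan day 2.

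Lamc1, the gamma chain shared by most laminins, read 148 and 97.6 in wild type, 138 and 235 in the Terc knockout, 159 and 206 in the Ku86 knockout and 122 and 139.8 in the double knockout. The Ku86 knockout arrays lay above wild type by 0.59 ± 0.34 (adjusted p = 0.802), and the double knockout lay between the wild type arrays. Lamb3, a chain of laminin-332, read 164 and 151 in wild type, 126 and 126 in the Terc knockout, 187 and 80.8 in the Ku86 knockout and 252 and 78.7 in the double knockout. Its Terc knockout arrays were below wild type by 0.33, and the 2 arrays of each genotype without Ku86 lay on both sides of wild type. Lama2 and Lamb2, with double knockout differences of 0.56 and 0.61, read higher there on both arrays than on the wild type arrays, and Lama5 overlapped wild type at 0.04. Lama3 and Lama4 were too dim to be tested.

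**Figure D4:**
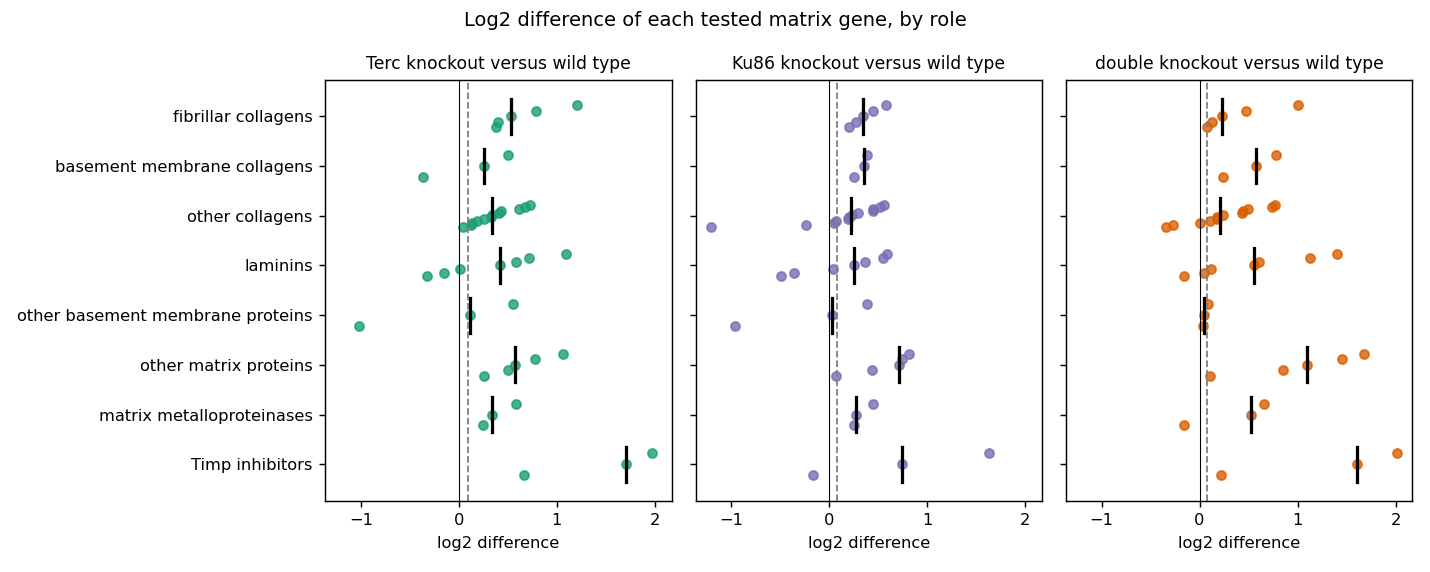
Log2 difference from wild type of every tested member (points), by role, in the Terc, Ku86 and double knockout, with the median of each role (black bar) and the median of all 5530 genes (dashed line). Timp inhibitors and other matrix proteins have the largest medians in the double knockout, 1.61 and 1.09, and other basement membrane proteins the smallest, 0.05.

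Among the basement membrane collagens, Col4a1 and Col4a2, whose chains form the main type IV network, read above wild type in the double knockout. Their annotated starts lie 21 bases apart on chromosome 8 on opposite strands. Col4a1 read 105 and 158 in wild type, 137 and 244 in the Terc knockout, 171 and 166 in the Ku86 knockout and 187 and 263 in the double knockout, a difference of 0.78 ± 0.34 (adjusted p = 0.561) for the latter. Col4a2 read 174 and 164, 181 and 224, 177 and 230.0, and 222 and 286 in the same order, a difference of 0.58 ± 0.27 (adjusted p = 0.582). For both genes double knockout replicate 2 was the highest array, and the double knockout did not overlap wild type.

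Col18a1, the collagen from which endostatin is cut, read 236 and 174 in wild type, 161 and 154 in the Terc knockout, 224 and 300.5 in the Ku86 knockout and 223 and 258 in the double knockout. The Terc knockout arrays were the 2 lowest, at -0.36 ± 0.27 from wild type (adjusted p = 0.711). The double knockout lay above the Terc knockout by 0.61 ± 0.27 (adjusted p = 0.990). The other 3 type IV chains on the array and Col15a1 were too dim to be tested. Col4a3 was under the floor on all 8 arrays, and Col15a1 read 8.5 to 54.5.

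Perlecan (Hspg2), the large heparan sulfate proteoglycan of the basement membrane, was low in the single knockouts and near wild type in the double knockout. It read 139 and 122 in wild type, 56.3 and 73.6 in the Terc knockout, 54.6 and 81.5 in the Ku86 knockout and 139 and 137 in the double knockout. All 4 single knockout arrays lay below all 4 other arrays. The Terc knockout differed from wild type by -1.02 ± 0.34 (adjusted p = 0.672), the Ku86 knockout by -0.96 ± 0.34 (adjusted p = 0.802) and the double knockout by 0.08 ± 0.34, a value that is below 0 with either other scaling. The interaction, which is the difference between the effect of Terc loss with and without Ku86, was 2.06 ± 0.48 with an adjusted p of 0.813, the lowest of the members. It was 1.67 within scan day 2, 2.25 with quantile normalization, 2.36 with median centring, and 1.77 to 2.35 with any 1 array left out.

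Lama1 had the second largest interaction, 2.05 ± 0.79 (adjusted p = 0.875), with its level high only in the double knockout. Fbln1, a fibulin of basement membranes and elastic fibres, had an interaction of -0.90 ± 0.36 (adjusted p = 0.875). It read 223 and 211 in wild type, 289.8 and 349.6 in the Terc knockout, 273 and 294 in the Ku86 knockout and 266 and 186 in the double knockout, so both single knockouts lay above wild type and the double knockout on both sides of it. A second tested probe set of Fbln1 gave smaller differences from wild type, 0.18 in the Terc knockout, 0.14 in the Ku86 knockout and 0.04 in the double knockout. Lamc1 had an interaction of -1.05 ± 0.48 (adjusted p = 0.875). Over the 41 members the median interaction was -0.37, with 11 above 0, beside -0.07 for all genes, of which 44.1% lay above 0. At an unadjusted p under 0.05, 2 members lay above 0 (1.63% of all genes) and 2 below (3% of all genes). Lama1 is 1 of the 2 above, although it passed the filter only through the double knockout. With an array left out the number above ran from 1 (without wild type replicate 2) to 3 (without Ku86 knockout replicate 2). The number below was 5 without Terc knockout replicate 1, 4 without wild type replicate 1, 1 without wild type replicate 2 or double knockout replicate 1, and 0 without Terc knockout replicate 2 or Ku86 knockout replicate 2. With the adjustment, no probe set of the array was called.

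**Figure D5:**
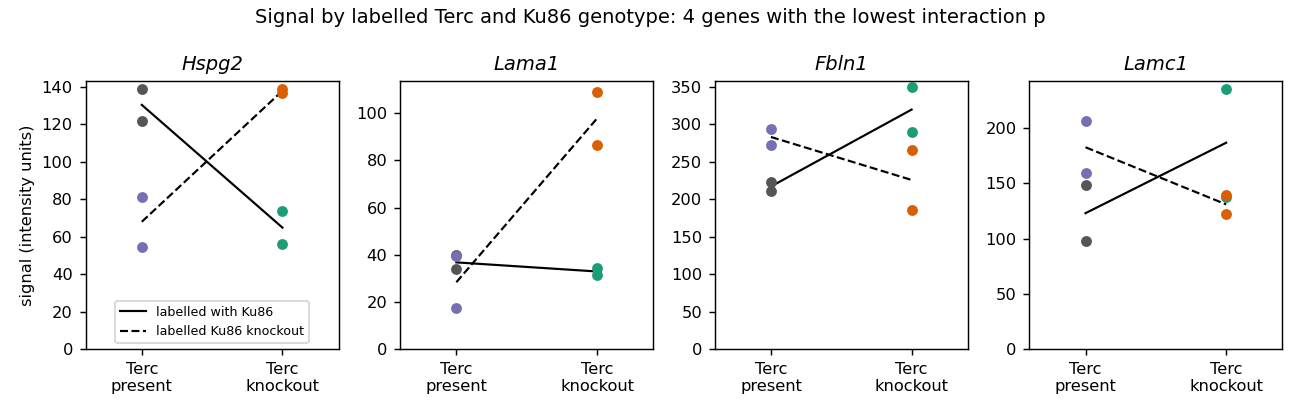
Signal of the 4 members with the lowest interaction p on every array (points), by Terc genotype (horizontal axis), with lines through the genotype means for arrays labelled with Ku86 (solid) and arrays labelled Ku86 knockout (dashed). The lines cross for Hspg2, Fbln1, Lamc1 and Lama1, and for Lama1 the double knockout alone is high; no interaction passed the adjusted threshold.

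The fibrillar collagens showed small differences in the double knockout, with a median of 0.23 over the 5 tested, beside 0.53 in the Terc knockout and 0.34 in the Ku86 knockout. All 5 lay above 0 in the double knockout with the deposited scaling, 4 with quantile normalization and 2 with median centring. The medians in the double, Terc and Ku86 knockout were 0.12, 0.46 and 0.19 with quantile normalization and -0.04, 0.20 and 0.11 with median centring. Col1a1 and Col1a2 encode the chains of type I collagen. Col1a1 read 146 and 197 in wild type, 206 and 291 in the Terc knockout, 199 and 323 in the Ku86 knockout and 184 and 301 in the double knockout, and only the double knockout overlapped wild type. Col1a2, the brightest member, read 732 and 791, 801 and 1226, 1012 and 919.7, and 762 and 839.5 in the same order. In the double knockout it differed from wild type by 0.07 ± 0.22, with overlapping arrays.

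The dimmer probe sets of the type I genes, which were not tested, gave another picture. The second probe set of Col1a1 had a mean of 22.2 in wild type, 26.3 in the Terc knockout, 36.0 in the Ku86 knockout and 96.4 in the double knockout. The second probe set of Col1a2 had means of 13.3, 22, 23.6 and 36.6. The probe sets of these genes thus disagree on the size of the double knockout difference, and the probe positions are not used here.

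Col5a1, a chain that takes part in starting fibrils, read 175 and 208 in wild type, 229.7 and 274 in the Terc knockout, 191 and 251 in the Ku86 knockout and 196 and 255 in the double knockout, with overlap in the latter 2. Its second tested probe set lay below wild type in the Terc knockout, at -1.15, where the first lay above it, at 0.40. Col11a1 read 38.7 and 18.6, 49.1 and 78.0, 43.3 and 24.2, and 39.9 and 72.3 in the same order, 1.00 ± 0.61 above wild type in the double knockout (adjusted p = 0.715). Col2a1, the collagen of cartilage, read 41.1 and 56.2, 59.8 and 116, 70.2 and 61.4, and 29.8 and 92.4, so that only the single knockouts lay above wild type. Col3a1, which forms mixed fibrils with type I collagen, was not tested because its mean level was under the filter. It read 17.0 and 13.9 in wild type, 64.9 and 54.6 in the Terc knockout, 18.8 and 54.9 in the Ku86 knockout and 53.4 and 66.8 in the double knockout, so all 6 knockout arrays were above wild type.

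Of the 16 other collagens, 12 were tested, and 10 of them read above wild type in the double knockout with a median difference of 0.21. With quantile normalization 7 did, with a median of 0.04, and with median centring 5 did, with a median of -0.06. The type VI chains, which form beaded microfilaments around cells, differed in size. Col6a1 read 170.4 and 166 in wild type, 187 and 272 in the Terc knockout, 209 and 251 in the Ku86 knockout and 277 and 283 in the double knockout, where it lay above all other arrays and differed from wild type by 0.74 ± 0.26 (adjusted p = 0.469). Col6a3 read 28.9 and 31.6, 36.5 and 68.3, 46.9 and 42.3, and 33.7 and 78.9, with all knockout arrays above wild type and a double knockout difference of 0.77. Col6a2 differed by 0.18.

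Col9a3, a chain of a collagen that sits on the surface of fibrils, read 149 and 164 in wild type, 217 and 289 in the Terc knockout, 227 and 199.7 in the Ku86 knockout and 251 and 178 in the double knockout. All knockout arrays lay above wild type, by 0.68 ± 0.27 in the Terc knockout (adjusted p = 0.672) and 0.43 ± 0.27 in the double knockout (adjusted p = 0.728). Col13a1, a membrane-spanning collagen, read 39.5 and 39.0, 56.7 and 63.7, 54.3 and 20.5, and 19.0 and 50.1 in the same order. Its Terc knockout arrays lay above wild type, by 0.61, and the arrays of the Ku86 and double knockout lay on both sides of it. Col8a1 had the lowest difference in the Ku86 knockout, -1.20 ± 0.66 (adjusted p = 0.802), which rested on a single array that read 16.7 beside 69.1 on the other.

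Of the 13 Mmp genes only 3 were tested, and the other 10 were dim. Mmp14, the membrane-bound enzyme that activates Mmp2, was the brightest. It read 206 and 232 in wild type, 285 and 376 in the Terc knockout, 279 and 317 in the Ku86 knockout and 396 and 301 in the double knockout. All 6 knockout arrays lay above wild type, and the differences were 0.58, 0.44 and 0.66, each with an SE of 0.25 (adjusted p = 0.672, 0.802 and 0.497). Mmp17 read 27.7 and 48.1, 35 and 60.5, 24.3 and 77.8, and 32.7 and 32.5 in the same order, with overlap throughout. Mmp11 overlapped wild type in all 3 knockouts. Mmp7, Mmp10 and Mmp24 were at or under the floor on all 8 arrays. Mmp2, an enzyme that cuts type IV collagen, was not tested and read 33.8 on Terc knockout replicate 2, 37.6 and 27.0 on the Ku86 knockout arrays and lay under the floor on the other 5 arrays.

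In all, 25 of the 66 members were too dim to be tested. Their brightest single reading was 74.5, for Lama4 on Ku86 knockout replicate 2, and 5 of them (Col4a3, Col22a1, Mmp7, Mmp10 and Mmp24) never exceeded the floor. Lama4, just outside the filter, had a geometric mean signal of 37.3, and Mmp17, just inside it, 39.3. Nid1, the nidogen that links the laminin and type IV collagen networks, was among the dim genes.

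The double knockout was also compared with each single knockout. Against the Ku86 knockout 25 of 41 members lay above 0 with a median of 0.20, and against the Terc knockout 21 of 41 did with a median of 0.03, beside medians of -0.002 and -0.01 for all genes. The median against the Ku86 knockout was 0.13 without Ku86 knockout replicate 1 and 0.11 without double knockout replicate 2. Against the Terc knockout 13 members lay above 0 without Terc knockout replicate 1, with a median of -0.26, and 26 without replicate 2, with a median of 0.16. Without double knockout replicate 2, 18 did, with a median of -0.047, and without replicate 1, 24 did, with a median of 0.098. In the former 10 members lay above without overlap (all genes 16.3%) and 6 below (all genes 16%), and in the latter 8 lay above (all genes 16.4%) and 6 below (all genes 16.3%). At an unadjusted p under 0.05, 4 members were higher against the Ku86 knockout (2.53% of all genes): Lama1, Dcn, Hspg2 and Sparc. Against the Terc knockout 4 were higher (2.39% of all genes): Hspg2, Lama1, Bgn and Col18a1. The former count was 1 without Ku86 knockout replicate 1. The latter was 1 without Terc knockout replicate 2, and 2 without Terc knockout replicate 1 or double knockout replicate 2. Lama1 is in both counts, although it passed the filter only through the double knockout. In both comparisons 0 members were lower at that p (0.94% and 1.63% of all genes), and limma called 0 probe sets, with 245 and 310 at an unadjusted p under 0.05. For Sparc the difference from the Ku86 knockout was 1.84 within scan day 1 and 0.10 within scan day 2.

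Other genes that act on the matrix were described from lists that do not hold the members. Of 9 tested matrix receptors, 8 read above wild type in the double knockout, with a median of 0.62, and 1 was called, beside 0.0275% of probe sets overall. It was Itgb1, the beta-1 integrin chain of most collagen and laminin receptors, which read 116 and 185 in wild type, 406 and 312 in the Terc knockout, 276 and 343 in the Ku86 knockout and 609 and 550.4 in the double knockout. Itgb1 rose in the double knockout by 1.98 ± 0.28 (adjusted p = 0.0478), and all 6 knockout arrays were above wild type. The call held in 8 of 20 alternatives, with limma adjusted p from 0.0283 to 0.347 and a difference of 1.57 or more in each. It was lost without wild type replicate 1 (0.268), either double knockout replicate (0.249 and 0.133) or either Terc knockout replicate (0.0696 and 0.0679). It was also lost with quantile normalization (0.111), median centring (0.223), no filter (0.347), no variance trend (0.228), scan day as a block (0.325), the experiment number as a replicate block (0.0984) or the mean of its probe sets (0.164). Itgav, another integrin chain, differed by 1.38.

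Of 22 other matrix glycoproteins and proteoglycans, 17 read above wild type in the double knockout, with a median of 0.30 and 0 calls, while 14 did with quantile normalization and 11 with median centring, with medians of 0.036 and 0.035. They included Mgp, an inhibitor of calcification, at 1.85, Ccn2 at 1.39 and Sparcl1, a relative of Sparc, at 1.30. Of 8 other matrix proteases and inhibitors, 7 read above wild type with a median of 1.09 and 0 calls, led by the lysosomal protease Ctsl at 1.84. All 8 genes of collagen processing and crosslinking read above wild type, with a median of 0.15 and 0 calls, but 4 of 8 did with quantile normalization (median 0.01) and 2 of 8 with median centring (median -0.12). Of 11 Tgf-beta ligands, receptors and effectors on the array, 3 were tested, and all 3 lay above wild type with a median of 0.62.

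Marker genes of the other cells of the testis were read beside the members. The summed signal of 9 Sertoli cell markers was 1597 and 1601 on the wild type arrays, 2368 and 2129 in the Terc knockout, 1663 and 2578 in the Ku86 knockout and 3243 and 2838 in the double knockout. Of these 9 markers, 8 read above wild type in the double knockout, with a median of 0.71. Much of the rise in the sum came from Clu, at 494 and 397 in wild type and 1410 and 1062.5 in the double knockout. Fshr and Amh hardly differed there, by 0.04 and -0.006.

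The sum of 7 peritubular myoid markers was 3588 and 3594 in wild type and 3519 and 3653 in the double knockout, but Actg2 made up most of it. Actg2 itself was lower in the knockouts, by -0.23 in the Terc, -0.27 in the Ku86 and -0.34 in the double knockout. It read 3183 and 3186 in wild type and 2680 and 2358 in the double knockout. Without Actg2 the sum of the other 6 was 405 and 408 in wild type, 790.1 and 545 in the Terc knockout, 593 and 835 in the Ku86 knockout and 839 and 1295 in the double knockout. Acta2, smooth muscle actin, read 81.1 and 91.1 in wild type and 296 and 500.2 in the double knockout, and Myh11, smooth muscle myosin, read 4.6 and 9.8 and then 95.7 and 121. The differences were 2.16 (adjusted p = 0.178) and 3.19 (adjusted p = 0.121), and that of Myh11 depends on the floor. Of 6 tested peritubular markers 5 read above wild type and Actg2 below it, with a median of 0.90. Acta2 and Myh11 had the largest differences among them.

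The sum of 8 endothelial markers was 261 and 281 in wild type, 239 to 411 in the single knockouts and 493 and 459 in the double knockout. Only 3 of the 8 were bright enough to be tested. All 3 read above wild type in the double knockout, 1 in the Terc knockout and 2 in the Ku86 knockout, with 0 at an unadjusted limma p under 0.05. The sum of 6 Leydig cell markers was 792 and 967 in wild type, 942 and 1494 in the Terc knockout, 785 and 1170 in the Ku86 knockout and 1679 and 983 in the double knockout. The sum of 6 macrophage markers ran from 454 to 535 over the 8 arrays, and that of 4 epididymis markers from 51.8 to 140.3. For 3 erythroid markers the sum was 3123 and 2373 in wild type and 1497 and 1402 in the double knockout. It was 1636 and 3442 in the Terc knockout and 1018 and 2590 in the Ku86 knockout. Of these 3 markers, 2 read above wild type in the double knockout, and the brightest, Hba-a1, lay below it at -1.01. Of 11 tested germ cell markers 5 read above wild type in the double knockout, with a median of -0.01. With quantile normalization 9 did, with a median of 0.11, and with median centring 3 did, with a median of -0.28. In RNA from mixed cells, fewer cells of a type and less RNA per cell cannot be told apart. Whether the source was testis, as labelled, or germ cells, as in the scanner records, is not settled here. The part of Sertoli, myoid, endothelial and Leydig cell RNA in the levels of the matrix genes was not tested.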

How the data were processed

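The authors deposited linear intensities, 1 per probe set. Each array had been brought to a common level: its mean, leaving out 2% of probe sets at each end, was 200.13 to 200.16. The software was not given in the sources used here. Scan day, lot, pooling and repeats come from the scanner records, per the file headers. The number of arrays limits the precision. Exact permutation tests of single members over 4 arrays against 4 are not given, since the members had been picked by their limma p in the same comparison. The alternatives tried are given in the closing section.

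The deposited scaling was kept, intensities were raised to at least the pooled 20th percentile (11.8) and put on a log2 scale. Among the 12488 probe sets, 66 controls and 5140 with a mean log2 signal under the pooled 40th percentile (38.1) were left out. The other 7282 were fitted on all 8 arrays with limma 3.58.1 in R 4.3.3 (lmFit, eBayes with a trend), 1 mean per genotype and 8 contrasts, two-sided, with Benjamini-Hochberg adjustment over all probe sets and calls at adjusted p under 0.05. The pipeline was tested on simulated data. Quoted levels are the deposited intensities, and differences are on the floored log2 scale with limma's standard error. Gene names came from GEO's platform annotation, in which 10855 probe sets had 1 symbol, 396 several and 1237 none.

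Values on every array are given for members called in any contrast, for up to 12 above and 6 below wild type with the largest double knockout difference and no overlap, for up to 4 more each way in each single knockout, for the 2 brightest in wild type of each role where tested, and for the Timp genes. Col3a1, Acta2, Myh11 and other genes outside this rule were chosen after their values were seen. The members, the lists and the tests were chosen with earlier results of these data known. Terc and Fbn1 were not analysed here.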

Additional observations from a re-analysis of the deposited data

How the results depend on the processing

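There were 21 alternatives. They changed the scaling, the floor, the dim filter or the variance model, fitted only the groups compared, blocked by experiment number or by scan day, used scan day 2 alone, averaged the probe sets of each gene, moved the threshold to 0.10 or left out 1 array at a time. No member was called in the 8 comparisons under any of them except scan day 2 alone, where 1 member was called against wild type in the Terc knockout, in the Ku86 knockout and in the double knockout (Timp3 each time, 3.61 in the double knockout, adjusted p = 0.00184) and 1 for Ku86 loss averaged over Terc genotype (Bgn). That fit has 1 array for 3 of the genotypes, whose spread is assumed to equal that of the 2 Terc knockout arrays, and its single wild type array lies under the floor for Timp3.

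The median difference of the members was 0.0872 in the Terc knockout, 0.0599 in the Ku86 knockout, 0.16 in the double knockout, -0.0702 for the interaction and 0.0615 for Terc loss averaged over Ku86 genotype with median centring. With quantile normalization it was 0.13 in the Ku86 knockout, 0.15 in the double knockout and -0.18 for the interaction. With an array left out it ran from 0.27 to 0.69 in the Terc knockout, from -0.26 to 0.16 for the double against the Terc knockout, from -0.53 to -0.17 for the interaction and from 0.19 to 0.43 for Terc loss averaged over Ku86 genotype.

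Of 720 values of the 36 named differences under alternatives, 700 kept their direction and their side of the threshold, which was largely fixed in advance. Most of these differences were picked because the arrays of the 2 groups did not overlap, so leaving out 1 array could not turn them. Some other alternatives changed only the error, or left out an array of another genotype, and left the difference as it was. In 19 values the direction turned, over 9 differences of the double knockout from wild type that were all small. With median centring these were Timp1 (-0.0481), Col18a1 (-0.0238), Col1a2 (-0.19), Col5a1 (-0.0399), Lamc1 (-0.15), Fbln1 (-0.23) and Hspg2 (-0.18). With quantile normalization they were Lamc1 (-0.0304), Fbln1 (-0.0921) and Hspg2 (-0.0791), and Fbln1 was also -0.0274 with scan day as a block and -0.18 in scan day 2 alone. With an array left out, Timp1 ran from -0.0245 to 0.46, Lamb3 from -1.0 to 0.68, Lamc1 from -0.18 to 0.42, Mmp17 from -0.56 to 0.23, Fbln1 from -0.22 to 0.29 and Hspg2 from -0.0105 to 0.18. The cause was not tested. The count of members at an unadjusted p under 0.05, an alternative chosen after seeing the data, is given in the text without the single arrays that moved it most.

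Whether the experiment numbers pair the arrays was not settled, and the main fit did not pair them. The correlation of the deviations of arrays with the same number was low but above 0, from 0.013 to 0.254 over the 6 pairs of genotypes. With the experiment number as a replicate block 0 members were called in all 8 comparisons, and 12, 9 and 4 members were higher at an unadjusted p under 0.05 in the double, Terc and Ku86 knockout. Dim genes are limited by signal over background: 25 of the 66 members could not be tested.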
